A study of Mus musculus with 8 samples.

Results

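Kinesins are motor proteins that use ATP to move along microtubules, and their genes are examined here in undifferentiated spermatogonia (A_undiff), the cells from which sperm production is maintained. The kinesin genes were taken as the genes whose symbol starts with Kif followed by a digit, and 36 of the 14608 genes of the deposited count table met this rule. By textbook role, 12 of them are mitotic kinesins, 13 are transport kinesins and 10 have other roles. Kif1bp, the last of the 36, matches the name pattern but encodes a protein that binds kinesins and has no motor of its own. GENCODE release M21 annotates 39 protein-coding mouse genes with such names, and Kif12, Kif26b and Kif28 were not analysed here.

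Regenerative A_undiff (BU, 4 libraries) came from adult C57BL/6J wild-type mice of 6 to 8 weeks of age, 10 days (D10) after a single busulfan dose of 10 mg/kg. Homoeostatic A_undiff (CTRL, 4 libraries) came from untreated mice of the same strain and age. Busulfan is an alkylating agent that depletes germ cells, and the cells were sorted in both groups as positive for E-cadherin and CD49f (the integrin subunit ITGA6) and negative for c-KIT, a receptor of differentiating spermatogonia. BU against CTRL asks how A_undiff that rebuild the germline differ from those of an undisturbed testis.

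Mitotic kinesins build and move the spindle, carry chromosome arms, and later divide the cell at the midbody, so their transcripts are most abundant in cells that pass through G2 and M phase. Transport kinesins carry vesicles, mitochondria and other cargo towards microtubule plus ends. The remaining members have varied roles, among them shortening microtubules, acting at cilia and restraining microtubule growth. In the testis, spermatogonia divide by mitosis with incomplete cytokinesis and stay joined by intercellular bridges, structures derived from the midbody.

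Total counts per library were 17181963 to 24243985 in BU and 18152779 to 23875108 in CTRL, of which the kinesin genes took 34614 to 50191 counts in BU libraries and 32568 to 41355 in CTRL libraries. Within a group, log2 CPM (counts scaled to a common library size) correlated at 0.974 to 0.99 between libraries. By chi-square on the raw counts, BU 3 stood apart from the other BU libraries (31.2 to 36.3 per degree of freedom, against 8.34 to 12.4 among the others). By log2 CPM correlation the ranges overlapped (0.974 to 0.981 with BU 3, against 0.980 to 0.983 among the others). All 14 listed markers of undifferentiated spermatogonia were in the table, with 4 lower and 0 higher in BU at an adjusted p under 0.05 and a fold over 1.5, which 6.54% of all genes passed as lower and 6.8% as higher. All 8 progenitor markers fell (summed CPM of 133 to 168 in BU and 371 to 419.6 in CTRL), 7 of 8 differentiating spermatogonia markers rose (525 to 576 in BU and 292 to 349 in CTRL), and so did 4 of 6 proliferation markers (1803 to 1999.8 in BU and 995.5 to 1066 in CTRL). The other proliferation markers, Mcm2 and Pcna, were higher by 1.46-fold and 1.48-fold, under the fold threshold (limma adjusted p = 2e-06 and 6.8e-05). Of 14 listed immune markers the table holds 6, and all 6 rose (29.9 to 42.6 in BU and 12.6 to 21.6 in CTRL). Summed CPM was 47.5 to 66.4 in BU and 39.4 to 49.8 in CTRL for 7 Sertoli markers (2 rose). For 7 Leydig, stromal and endothelial markers (2 rose and 1 fell) it was 63.9 to 70.8 in BU and 76.1 to 81.9 in CTRL. The lower BU sum of these 7 rests on Col1a1, the marker that fell (means of 17.6 CPM in BU and 46.3 CPM in CTRL). Kdr (16.8 CPM in BU and 6.06 CPM in CTRL) and Pdgfra (14.9 CPM in BU and 7.76 CPM in CTRL) rose. Of the 7, 4 had a positive log2 fold change and 3 a negative value. The sum without Col1a1 was not formed. Spermatocyte markers (13 tested) had 0 higher and 1 lower in BU, and spermatid markers (11 tested) had 0 DEGs by limma-voom, edgeR or DESeq2 and 1 with an unadjusted limma p under 0.05. Over all 14608 genes, 6093 had such a p. In a sorted pool, more cells of a type and more RNA per cell cannot be told apart. Lin28a is counted among both the undifferentiated and the progenitor markers. Kit, which encodes the c-KIT receptor that the sort left out, had 81.8, 78.6, 110.2 and 83.7 CPM in BU 2 to BU 5 and 14.9, 20.9, 15.6 and 15.1 CPM in CTRL 1 to CTRL 4 (2.42, SE 0.13, limma adjusted p = 8e-10). The differentiating marker count was 5 to 7 with any 1 library left out. Among those that rose, the groups overlapped for Stra8 and Rhox13. The Sertoli count was 1 without CTRL 3, 1 to 3 over all fits without 1 library, and 0 without BU 3 and BU 5. The immune count was 5 by DESeq2 and 4 to 6 with any 1 library left out, and the groups overlapped for H2-Aa and Ptprc. With a filter of 5 CPM in 4 libraries, which drops low genes, the immune count was 1 and the Sertoli count 0. The part of these markers in the kinesin results was not tested.

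Mitotic kinesins as a list had more RNA in BU. All 12 had a positive log2 fold change (BU minus CTRL), between 0.22 and 0.81 with a median of 0.46, beside a median of -0.00591 over all genes tested. A gene was called differentially expressed (DEG) where limma-voom gave a fold change over 1.5 and a p under 0.05 after Benjamini-Hochberg adjustment across the whole table. Of the 12, 4 were DEGs higher in BU, 0 were lower, and 8 did not pass, where 6.8% of all genes were DEGs higher in BU and 6.54% were lower. The BU and CTRL libraries did not overlap, with BU higher, for 10 of the 12, as for 14.5% of all genes (30.3% counting both directions). Without regard to fold size, 11 of the 12 had an adjusted p under 0.05 and were higher in BU (15.2% of all genes).

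**Figure D1:**
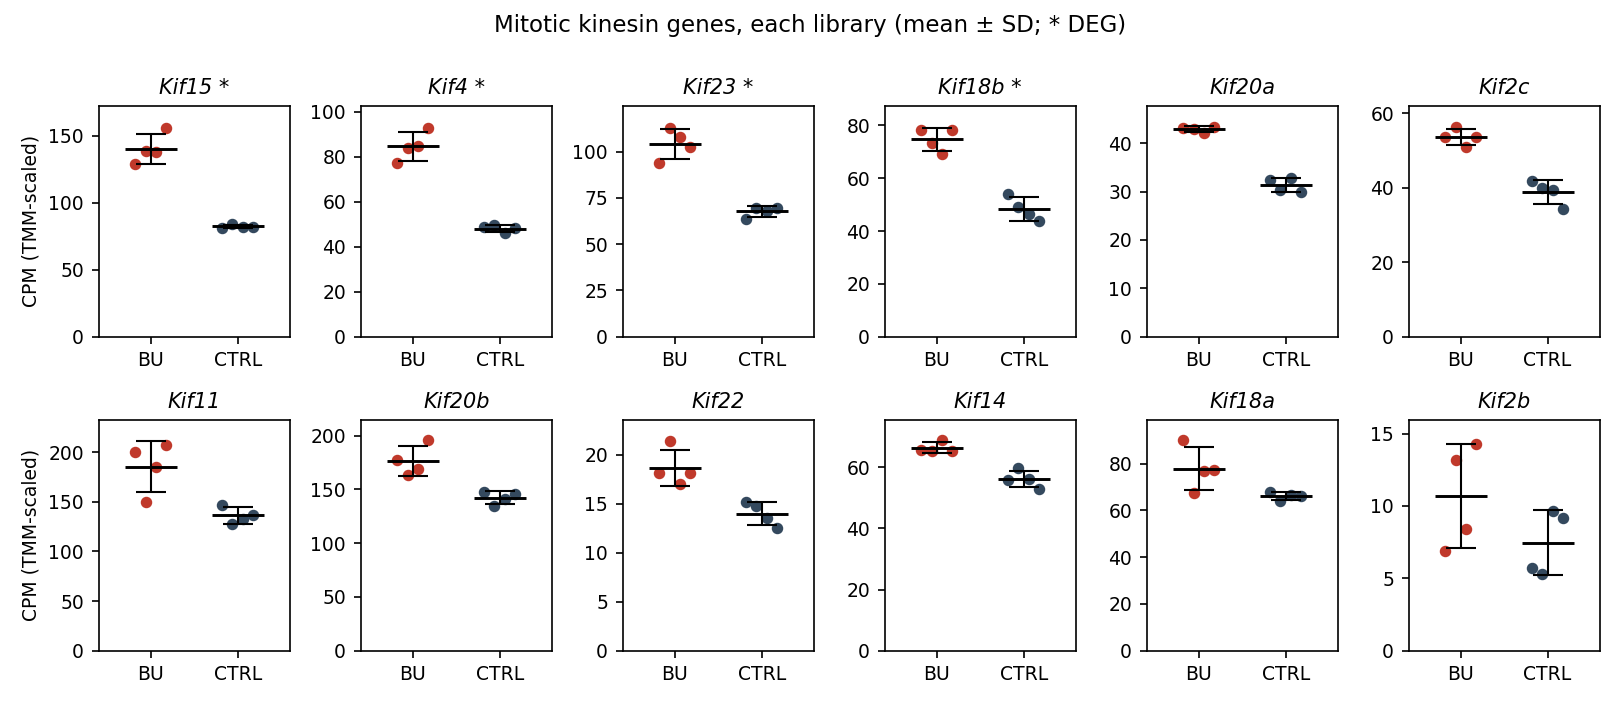
Level of each mitotic kinesin gene in CPM scaled by TMM factors, with 1 point for each library, bars for the mean ± SD of 4 libraries, and an asterisk for a DEG. The BU points stand above every CTRL point for 10 genes, and the groups overlap for Kif18a and Kif2b.

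Kif4 encodes the chromokinesin that shapes chromosome arms and the central spindle. Kif4 had 77.2, 84.1, 84.6 and 92.6 CPM in BU 2 to BU 5, against 48.7, 49.5, 45.9 and 48.2 CPM in CTRL 1 to CTRL 4. Every BU library was above every CTRL library, and the log2 fold change was 0.81 (SE 0.07, 1.76-fold, limma adjusted p = 1.7e-07, n = 4 each). Kif4 lies on chromosome X from 100625737 to 100727214 (GRCm38), and the gene Pdzd11 covers 15.1% of its exonic bases on the other strand. Pdzd11 had 13.8 ± 1.96 CPM in BU and 11.8 ± 0.519 CPM in CTRL and did not pass (SD, n = 4 each, limma adjusted p = 0.2).

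Kif15, a spindle motor that slides microtubules and can share the work of Kif11, had 129, 139, 138 and 156 CPM in BU 2 to BU 5 and 81.2, 84.1, 82.1 and 82.0 CPM in CTRL 1 to CTRL 4. The groups did not overlap, and the 4 CTRL libraries lay close together. Its log2 fold change was 0.76 (SE 0.06, 1.70-fold, limma adjusted p = 1e-07). Kif15 lies on chromosome 9 from 122951046 to 123018733.

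Kif23 and Kif18b were the other DEGs, both just past the fold threshold. Kif23 encodes MKLP1, the centralspindlin motor of the midbody, which also sits in the intercellular bridges of germ cells. It had 93.9, 113, 108 and 103 CPM in BU 2 to BU 5 and 63.6, 69.5, 68.0 and 69.4 CPM in CTRL 1 to CTRL 4, a log2 fold change of 0.63 (SE 0.07, limma adjusted p = 2.5e-06). Kif18b, a motor that shortens astral microtubules, had 78.2, 73.3, 69.0 and 78.2 CPM in BU 2 to BU 5 and 54.2, 49.1, 46.6 and 43.7 CPM in CTRL 1 to CTRL 4. The groups overlapped for neither gene, and the log2 fold change of Kif18b was 0.63 (SE 0.08, limma adjusted p = 8e-06). Both calls rest on the fold threshold. Without CTRL 4 the log2 fold change of Kif18b was 0.58, and without BU 3 and BU 5 that of Kif23 was 0.58, so neither was then a DEG.

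Kif11 encodes EG5, the motor that pushes spindle poles apart. By the gene lengths the authors gave, it had the highest level per kilobase of all kinesin genes in BU. It had 200.5, 149.8, 185 and 207 CPM in BU 2 to BU 5 and 147, 128, 133 and 137 CPM in CTRL 1 to CTRL 4. The lowest BU library, BU 3, stood only just above the highest CTRL library. The log2 fold change was 0.42 (SE 0.08, limma adjusted p = 9.3e-04), under the fold threshold.

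The other 7 mitotic kinesins were not DEGs either. Kif2c, the microtubule depolymerase that frees wrongly attached kinetochores, had a log2 fold change of 0.47 (SE 0.08), and Kif20a, the motor that brings Aurora B to the central spindle, one of 0.45 (SE 0.07). Kif22, a chromokinesin, differed by 0.43 (SE 0.11), Kif20b, a cytokinesis motor, by 0.30 (SE 0.06), and Kif14, a midbody motor that holds the citron kinase, by 0.24 (SE 0.06). Kif18a, which dampens chromosome movement at the metaphase plate, differed by 0.22 (SE 0.08). These 6 had adjusted p values of 1.4e-04 to 0.041 with folds under the threshold. Of the exonic bases of Kif20a, 29.3% lie opposite Cdc23, whose log2 fold change was 0.00 (SE 0.07). Kif2b, a depolymerase related to Kif2c, did not pass (0.50, SE 0.23, limma adjusted p = 0.12). Its groups overlapped, and without BU 2 it passed, with a log2 fold change of 0.67.

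Most promoters of the mitotic kinesins hold short letters that the name rule did not use. The list was itself placed by mitotic role, so the letters are not independent of that placing. Many genes transcribed in G2 and M phase carry a CCAAT box, bound by NF-Y, and a cell cycle homology region (CHR), the element through which the DREAM and MYB-MuvB complexes act. The box was searched as CCAAT and, for the opposite strand, as ATTGG. The CHR was searched as TTTGAA and, for the opposite strand, as TTCAAA. Each search ran from 250 bases before to 50 bases after the transcription start in RefSeq promoters (GRCm38.p6). Of 11 mitotic kinesin genes with a promoter in the table, 9 held the CHR letters (81.8%), 7 the CCAAT letters (63.6%) and 6 both (54.5%). Of 10 transport kinesin genes, 1 held the CHR letters (10%), 3 the CCAAT letters (30%) and 0 both, and of 8 other kinesin genes 1 held the CHR letters (12.5%), 3 the CCAAT letters (37.5%) and 1 both. Over all 32851 promoters the shares were 17.9% for CHR, 37.4% for CCAAT and 6.95% for both. A match describes the letters and not a bound site, and binding was not measured. Kif20a, Kif5a, Kif5b, Kif13b, Kif19a and Kif21b had no matching entry.

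The 4 mitotic kinesins with the smallest adjusted p among those with both motifs were Kif4, Kif23, Kif18b and Kif11, and their promoters are shown so that the placing of the letters can be read. That of Kif5c, the transport kinesin with the smallest adjusted p, is shown as the contrast. Capitals mark the CCAAT and CHR letters, in the direction of transcription. They come from chrX:100625815-100626114 (plus strand) for Kif4, chr9:61946750-61947049 (minus strand) for Kif23, chr11:102925075-102925374 (minus strand) for Kif18b, chr19:37376132-37376431 (plus strand) for Kif11, and chr2:49619036-49619335 (plus strand) for Kif5c, in RefSeq on GRCm38.p6.
Kif4: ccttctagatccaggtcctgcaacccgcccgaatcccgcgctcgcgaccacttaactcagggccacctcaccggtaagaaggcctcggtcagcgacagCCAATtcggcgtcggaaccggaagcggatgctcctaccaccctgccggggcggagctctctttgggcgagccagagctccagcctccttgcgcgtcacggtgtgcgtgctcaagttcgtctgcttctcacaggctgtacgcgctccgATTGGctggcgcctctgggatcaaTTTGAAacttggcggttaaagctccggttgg
Kif23: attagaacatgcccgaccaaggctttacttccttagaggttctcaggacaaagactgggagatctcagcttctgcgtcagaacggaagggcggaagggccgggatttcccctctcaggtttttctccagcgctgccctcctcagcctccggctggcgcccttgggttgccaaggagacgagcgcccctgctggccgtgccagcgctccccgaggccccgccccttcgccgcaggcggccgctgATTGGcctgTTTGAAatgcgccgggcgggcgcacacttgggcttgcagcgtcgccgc
Kif18b: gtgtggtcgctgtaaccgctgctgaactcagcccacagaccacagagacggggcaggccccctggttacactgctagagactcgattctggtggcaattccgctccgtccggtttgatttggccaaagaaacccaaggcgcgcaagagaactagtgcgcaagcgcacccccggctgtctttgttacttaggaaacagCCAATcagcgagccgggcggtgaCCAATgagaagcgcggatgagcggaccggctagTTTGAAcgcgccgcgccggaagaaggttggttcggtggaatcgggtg
Kif11: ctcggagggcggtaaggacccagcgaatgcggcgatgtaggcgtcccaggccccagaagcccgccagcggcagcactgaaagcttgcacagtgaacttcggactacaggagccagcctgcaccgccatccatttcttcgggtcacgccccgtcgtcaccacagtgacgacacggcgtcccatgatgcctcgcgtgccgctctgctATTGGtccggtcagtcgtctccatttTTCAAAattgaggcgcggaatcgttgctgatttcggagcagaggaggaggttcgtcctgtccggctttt
Kif5c: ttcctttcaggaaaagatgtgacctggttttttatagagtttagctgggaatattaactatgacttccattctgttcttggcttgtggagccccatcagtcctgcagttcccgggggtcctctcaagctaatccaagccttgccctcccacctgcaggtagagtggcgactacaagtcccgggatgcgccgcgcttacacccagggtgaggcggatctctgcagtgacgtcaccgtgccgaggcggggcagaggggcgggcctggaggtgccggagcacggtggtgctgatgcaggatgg

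In Kif4, Kif23 and Kif18b the CHR letters lie just past the start, at positions 20, 3 and 4, and in Kif11 just before it, at -19 (the first base of the match, counted from the start). A CCAAT box stands upstream in each, at -5 in Kif4, -7 in Kif23, -30 in Kif18b and -45 in Kif11, and Kif4 and Kif18b have a further one at -152 and -53. Kif15, the mitotic kinesin with the smallest adjusted p, held the CHR letters at -234 and -19 and no CCAAT box in the window. In the Kif5c window neither set of letters was found.

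Transport kinesins as a list lay around 0. Their median log2 fold change was -0.02, with 6 of 13 positive, and 2 were DEGs higher in BU, 1 was lower and 10 did not pass. The 3 DEGs are 23.1% of the list, where 13.3% of all genes were DEGs. The list's summed level was 534.5, 584, 584 and 592 CPM in BU 2 to BU 5, against 610.1, 590.4, 593 and 618 CPM in CTRL 1 to CTRL 4. The groups overlapped, since BU 5 lay above CTRL 2, and BU 2 was well below the other BU libraries. Single transport genes differed within that sum.

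**Figure D2:**
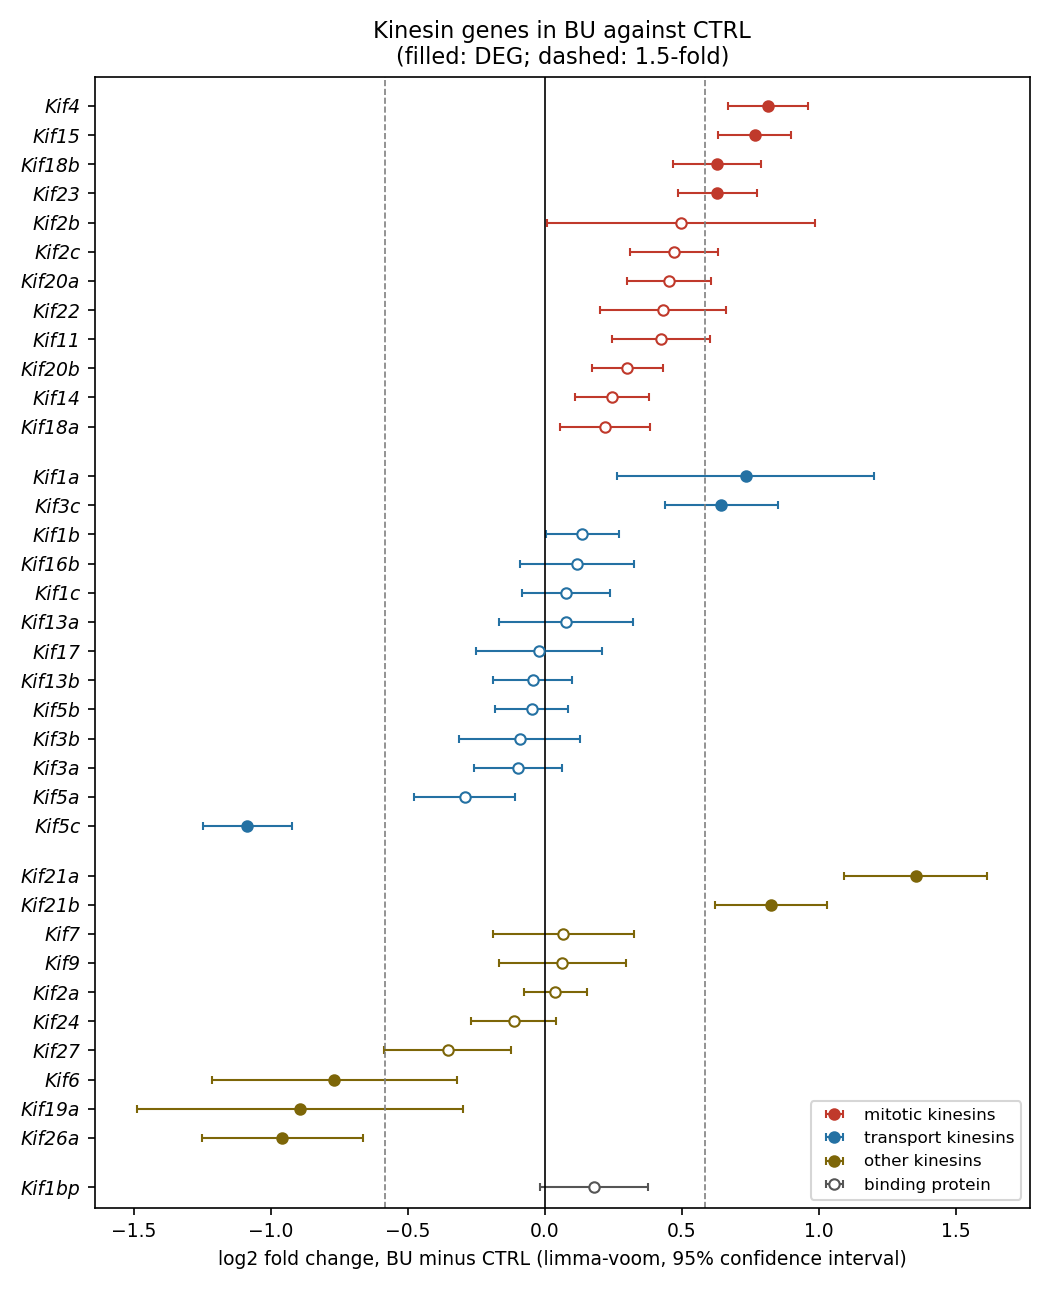
Log2 fold change of every kinesin gene, BU minus CTRL, with its 95% confidence interval from limma-voom, with filled points for DEGs and dashed lines at 1.5-fold. All 12 mitotic kinesins lie right of 0 (0.22 to 0.81), the transport kinesins scatter around 0 apart from Kif5c at -1.09, Kif3c at 0.64 and Kif1a at 0.73, and Kif21a at 1.35 is the largest difference.

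Kif5c was the transport kinesin that fell. KIF5C is a heavy chain of conventional kinesin, the founding motor of the family, of which mammals have 3 genes: Kif5a, Kif5b and Kif5c. In mammals Kif5b is expressed in most tissues, and Kif5a and Kif5c mostly in neurons. Kif5c had 28.7, 29.9, 32.3 and 33.7 CPM in BU 2 to BU 5 and 68.7, 63.9, 61.7 and 69.5 CPM in CTRL 1 to CTRL 4. The groups stood far apart, with a log2 fold change of -1.09 (SE 0.08, limma adjusted p = 1.9e-08), and the BU mean was 31.2 ± 2.24 CPM against a CTRL mean of 66.0 ± 3.74 CPM (SD, n = 4 each). Kif5c lies on chromosome 2 from 49619298 to 49774778.

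The 3 conventional kinesin genes did not move alike. Kif5a had 27.8, 29.8, 24.0 and 24.9 CPM in BU 2 to BU 5 and 32.9, 31.5, 31.9 and 34.4 CPM in CTRL 1 to CTRL 4. Its groups did not overlap, with a log2 fold change of -0.29 (SE 0.09, limma adjusted p = 0.016), short of the fold threshold. Kif5b, the broadly expressed heavy chain, had 76.9, 78.7, 83.7 and 82.1 CPM in BU 2 to BU 5 and 86.1, 76.0, 83.3 and 86.5 CPM in CTRL 1 to CTRL 4, and did not pass (-0.05, 95% confidence interval -0.18 to 0.09). Per kilobase of exon, the 3 genes together had 19.0 ± 0.438 CPM per kb in BU and 25.1 ± 1.23 CPM per kb in CTRL (SD, n = 4 each). Kif5c made up 22.9 ± 1.21% of that in BU and 36.7 ± 1.02% in CTRL, Kif5b 57.1 ± 1.27% in BU and 44.6 ± 1.13% in CTRL, and Kif5a 20.0 ± 2.27% in BU and 18.6 ± 0.374% in CTRL. Kif5b was thus the main heavy chain transcript in both groups.

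**Figure D3:**
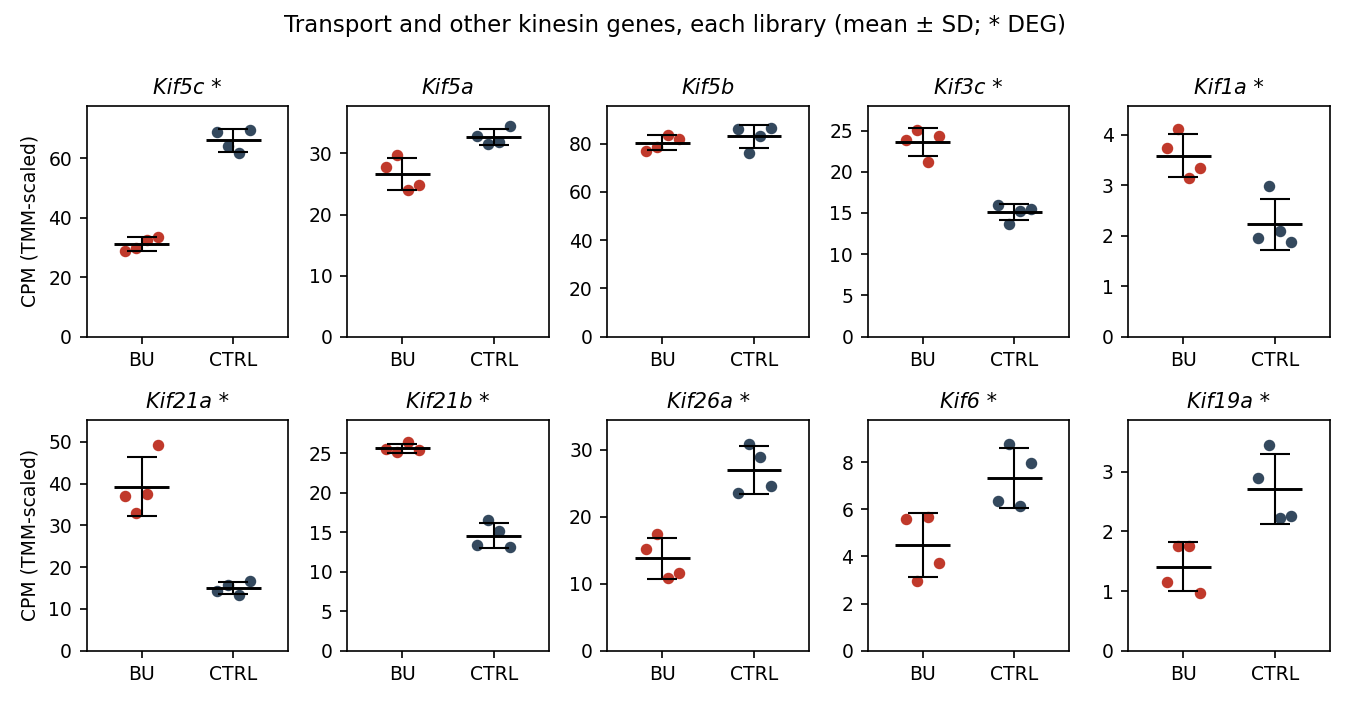
Level in CPM (TMM-scaled) of the transport and other kinesin genes that were DEGs, with Kif5a and Kif5b beside Kif5c, with 1 point for each library, bars for the mean ± SD of 4 libraries and an asterisk for a DEG. Kif5c stands at 28.7 to 33.7 CPM in BU and 61.7 to 69.5 CPM in CTRL, while the BU and CTRL points of Kif5b overlap.

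Kif3c and Kif1a were the transport kinesins that rose. Kif3c, a partner chain of KIF3A in heterotrimeric kinesin, had 23.8, 25.0, 21.1 and 24.4 CPM in BU 2 to BU 5 and 15.9, 13.7, 15.2 and 15.5 CPM in CTRL 1 to CTRL 4. The groups did not overlap, and the log2 fold change was 0.64 (SE 0.10, limma adjusted p = 8.1e-05). Of its exonic bases 40.7% lie opposite 1110002L01Rik and Gm48512, and without a stated strand setting their reads cannot be told apart. 1110002L01Rik had 2.62 ± 0.662 CPM in BU and 3.25 ± 0.397 CPM in CTRL and did not pass. Without BU 3 and BU 5 the log2 fold change of Kif3c was 0.57, short of the threshold. Kif1a, a fast motor of synaptic vesicle precursors in neurons, was among the least abundant kinesin genes, at 3.74, 4.11, 3.15 and 3.34 CPM in BU 2 to BU 5 and 1.95, 2.98, 2.10 and 1.88 CPM in CTRL 1 to CTRL 4. The lowest BU library was close to CTRL 2, the highest of its group. Its log2 fold change was 0.73 (SE 0.22, limma adjusted p = 0.018), and it did not pass without BU 3 (adjusted p = 0.05), without CTRL 4 (adjusted p = 0.063) or without BU 3 and BU 5 (adjusted p = 0.091).

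The remaining transport kinesins had small differences that did not pass. Kif3a and Kif3b, which pair in heterotrimeric kinesin and in intraflagellar transport, differed by -0.10 (SE 0.08) and -0.09 (SE 0.10) on the log2 scale. Those of Kif1b and Kif1c, carriers of mitochondria and vesicles, were 0.14 (SE 0.06) and 0.08 (SE 0.08). Kif13a and Kif13b, endosome and vesicle motors, stood at 0.08 (SE 0.12) and -0.05 (SE 0.07), Kif16b, a motor of early endosomes, at 0.12 (SE 0.10), and Kif17, a dendrite and cilium motor, at -0.02 (SE 0.11). Within the Kif3 genes, Kif3c made up 8.27 ± 1.02% of CPM per kb in BU and 5.10 ± 0.116% in CTRL, and Kif3a 77.5 ± 3.13% in BU and 80.3 ± 0.838% in CTRL.

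The difference between the mitotic and transport lists stood out within each library. Summed mitotic kinesin level was 1033, 989 and 1019 CPM in BU 2 to BU 4 and 1103 CPM in BU 5, against 761, 729, 735 and 731 CPM in CTRL 1 to CTRL 4. The mitotic to transport ratio within a library was 1.93, 1.69, 1.74 and 1.86 in BU 2 to BU 5 and 1.25, 1.24, 1.24 and 1.18 in CTRL 1 to CTRL 4, with means of 1.81 ± 0.11 in BU and 1.23 ± 0.029 in CTRL (SD, n = 4 each). No library of either group came near those of the other. Mitotic kinesins took 50.8 ± 1.13% of the CPM of all kinesin genes in BU and 42.1 ± 0.443% in CTRL, and transport kinesins 28.2 ± 1.1% in BU and 34.3 ± 0.489% in CTRL. Without Kif4, Kif15, Kif18b and Kif23, the mitotic sum was 632 ± 41.5 CPM in BU and 493 ± 15.4 CPM in CTRL, so the mitotic genes below the fold threshold were also higher in sum. These sums were not tested. They were not formed with Kif2a placed as mitotic (206.7 ± 9.54 CPM in BU and 200.9 ± 9.44 CPM in CTRL).

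**Figure D4:**
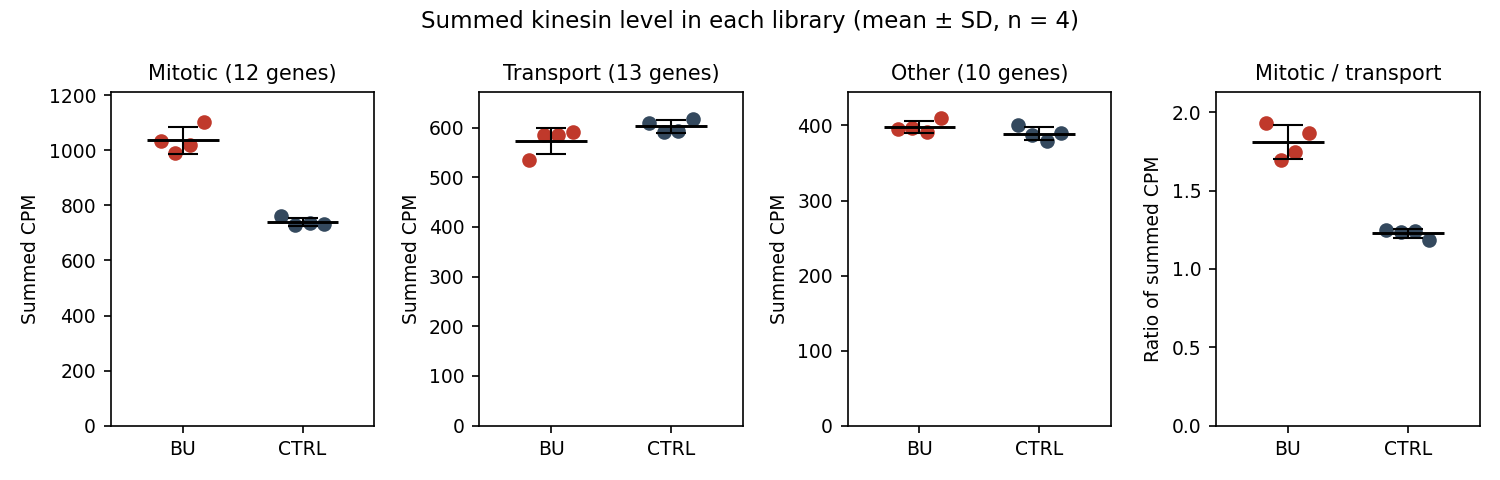
Summed CPM (TMM-scaled) of the mitotic, transport and other kinesin genes in each library, and the ratio of the mitotic to the transport sum, with bars for the mean ± SD of 4 libraries. The ratio was 1.69 to 1.93 in BU and 1.18 to 1.25 in CTRL, while the transport sums overlap.

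Kinesins with other roles split in both directions. Of 10, 2 were DEGs higher in BU, 3 were lower and 5 did not pass, with a median log2 fold change of -0.04. The 5 DEGs are 50% of the list, against 13.3% of all genes. Both genes that rose encode motors of 1 family, KIF21, which bind plus ends and slow or stop microtubule growth.

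Kif21a had the largest log2 fold change of any kinesin gene. It had 37.1, 32.9, 37.6 and 49.3 CPM in BU 2 to BU 5 and 14.4, 15.8, 13.4 and 16.7 CPM in CTRL 1 to CTRL 4. The lowest BU library was well above the highest CTRL library, with a log2 fold change of 1.35 (SE 0.12, 2.55-fold, limma adjusted p = 3.9e-07). Kif21a lies on chromosome 15 from 90933276 to 91049948. Kif21b had 25.6, 25.2, 26.4 and 25.4 CPM in BU 2 to BU 5 and 13.5, 16.6, 15.1 and 13.1 CPM in CTRL 1 to CTRL 4, again without overlap (0.82, SE 0.10, limma adjusted p = 6e-06). Per kilobase, the pair had 8.16 ± 1.09 CPM per kb in BU and 3.52 ± 0.243 CPM per kb in CTRL, of which Kif21a made up 73.9 ± 3.21% in BU and 66.0 ± 3.48% in CTRL.

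Kif26a, Kif6 and Kif19a fell. Kif26a encodes an atypical kinesin that lacks ATPase activity and restrains growth factor signalling, GDNF and RET signalling in the mouse enteric nervous system among them. It had 15.2, 17.4, 10.9 and 11.7 CPM in BU 2 to BU 5 and 23.5, 30.9, 29.0 and 24.6 CPM in CTRL 1 to CTRL 4. The groups did not overlap (-0.96, SE 0.14, limma adjusted p = 5.2e-05). Kif6, a motor with a role in cilia, had 5.58, 2.95, 5.67 and 3.71 CPM in BU 2 to BU 5 and 6.37, 8.77, 6.12 and 7.98 CPM in CTRL 1 to CTRL 4, a log2 fold change of -0.77 (SE 0.21, limma adjusted p = 0.0099). Its groups lay close together without overlap, and it did not pass without BU 3 (-0.54, adjusted p = 0.052) or without BU 3 and BU 5 (-0.35, adjusted p = 0.24). Kif19a, a depolymerase that limits cilium length, was near the lower limit of the table at 1.15, 1.75, 1.75 and 0.972 CPM in BU 2 to BU 5 and 2.90, 3.46, 2.23 and 2.26 CPM in CTRL 1 to CTRL 4. Its log2 fold change was -0.89 (SE 0.28, limma adjusted p = 0.022), and the call was lost without BU 2, BU 5, CTRL 1 or CTRL 2 (adjusted p = 0.053 to 0.07) and without BU 3 and BU 5 (adjusted p = 0.092).

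The last 5 kinesins with other roles did not pass the DEG thresholds. Kif27, a relative of the Hedgehog regulator Kif7, overlapped between the groups with a log2 fold change of -0.35 (SE 0.11, limma adjusted p = 0.02). Kif2a, a depolymerase at spindle poles and in neurons, had 206.7 ± 9.54 CPM in BU and 200.9 ± 9.44 CPM in CTRL (0.04, SE 0.05). Kif24, which acts at the mother centriole, had a log2 fold change of -0.11 (SE 0.07), Kif9, a motor of motile cilia and the sperm tail, one of 0.06 (SE 0.11), and Kif7 itself one of 0.07 (SE 0.12). Of the exonic bases of Kif7, 20.3% lie opposite 9330171B17Rik and Ticrr, and Ticrr, a replication gene, rose by 0.91 (SE 0.08). Such overlap exceeded 10% of the exonic bases in 6 of the 36 genes, namely Kif3c, Kif20a, Kif7, Kif2a, Kif4 and Kif1bp. Kif1bp differed by 0.18 (SE 0.09, limma adjusted p = 0.16).

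Levels per length place these differences within the family. By the gene lengths the authors gave, Kif11, Kif2a and Kif3a were the highest in both groups. For Kif11 that length is 4819 bp, while GENCODE M21 gives 7461 exonic bases, so its place depends on the annotation. Kif11 had 38.5 ± 5.29 CPM per kb in BU and 28.3 ± 1.70 in CTRL, Kif2a 32.3 ± 1.49 CPM per kb in BU and 31.4 ± 1.48 in CTRL, and Kif3a 30.1 ± 3.71 CPM per kb in BU and 32.1 ± 1.33 in CTRL (SD, n = 4 each). In neither group did Kif2a and Kif3a differ by more than their spread. Among the 36 genes ordered by CPM per kb, Kif5c was at rank 23 in BU and rank 8 in CTRL, and Kif21a at rank 17 in BU and rank 30 in CTRL. Kif19a and Kif1a were the lowest 2 in both groups, at under 1 CPM per kb.

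**Figure D5:**
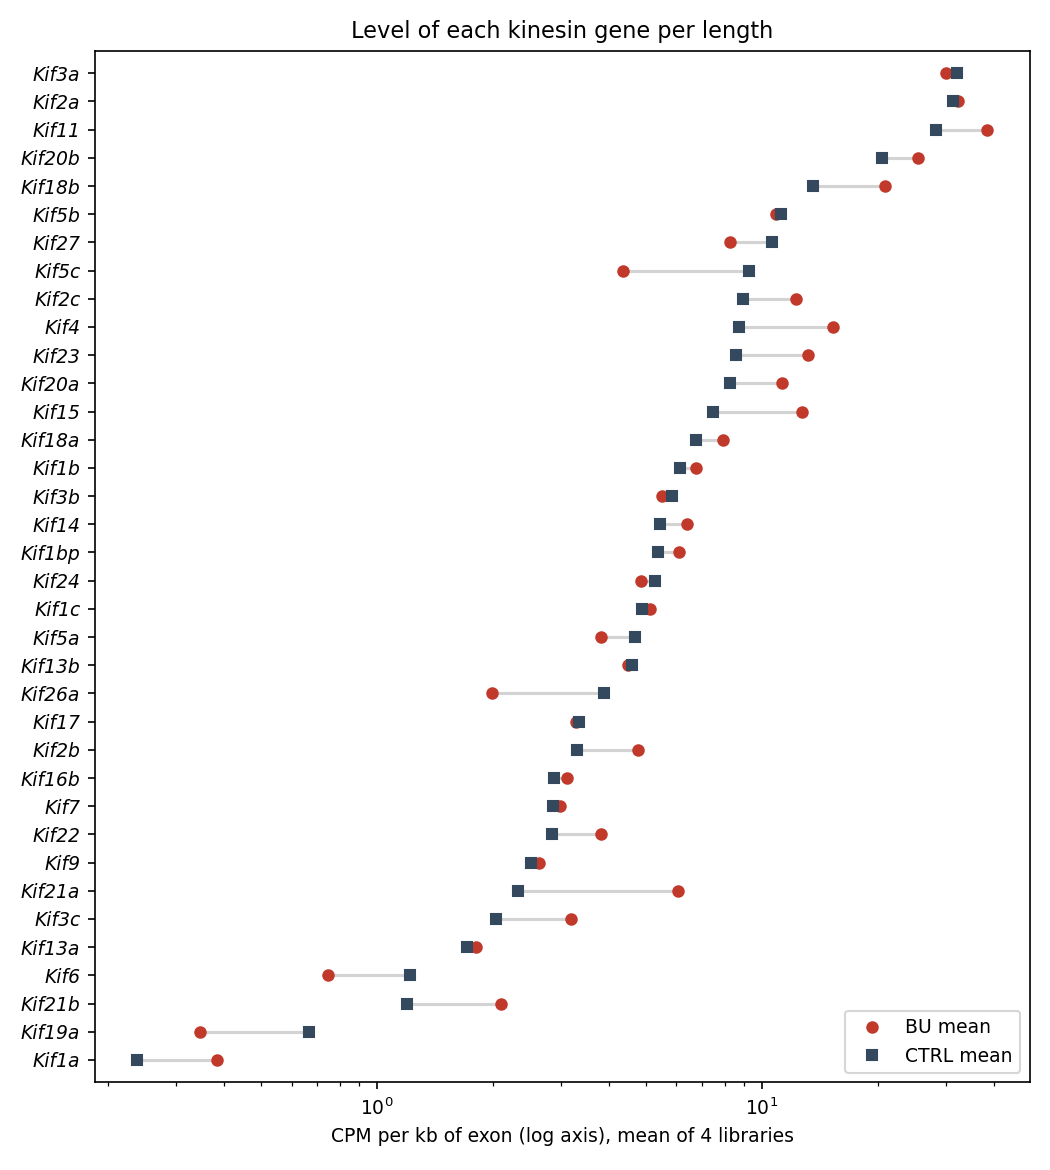
Mean level of each kinesin gene per kilobase of exon (CPM per kb, log axis) in BU (circles) and CTRL (squares), ordered by the CTRL level, with a line joining the means of 4 libraries. Kif11 is highest in BU at 38.5 CPM per kb, and Kif5c has 4.36 CPM per kb in BU and 9.23 CPM per kb in CTRL.

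Kinesin genes named otherwise and the partners of the motors were listed as well. Of 5 kinesins outside the name pattern, Kifc1, a minus-end motor that focuses spindle poles, rose (7.33 ± 0.661 CPM in BU and 4.28 ± 1.00 CPM in CTRL, 0.83, SE 0.17, limma adjusted p = 0.0015) and the other 4 did not pass. That single DEG is 20% of the list, against 13.3% of all genes. Kifc1 shares 39.8% of its 50-base words with other genes, its near copy Kifc5b among them, so its value is uncertain. Cenpe, the kinetochore kinesin, had a log2 fold change of 0.22 (SE 0.06) and Kifc2 one of -0.28 (SE 0.15). Of 15 partners of mitotic kinesins, 3 (20%) were DEGs higher in BU, 0 were lower and 12 did not pass, against 6.8% higher and 6.54% lower over all genes, with a median log2 fold change of 0.42. Without regard to fold size, 11 of the 15 had an adjusted p under 0.05 and were higher in BU (15.2% of all genes). Numa1, another partner, was lower (-0.18, SE 0.07, limma adjusted p = 0.04). Tpx2, a spindle assembly factor that targets Kif15 to the spindle, had 84.1 ± 3.59 CPM in BU and 48.3 ± 1.53 CPM in CTRL (0.80, SE 0.06), Plk1, a mitotic kinase, differed by 0.74 (SE 0.10), and Anln, the cytokinesis protein anillin, by 0.35 (SE 0.05), under the fold threshold. The third DEG was Birc5, the survivin subunit of the Aurora B complex.

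Subunits and adaptors of the transport motors were counted in the same way. Of 6 kinesin subunits and binding proteins, Kif1bp among them, 0 were DEGs by limma-voom, edgeR or DESeq2, and the median was -0.22. An unadjusted limma p under 0.05 was found for 3 of the 6, as for 6093 of all 14608 genes. Klc2, a light chain that links conventional kinesin to cargo, had an adjusted p under 0.05 (-0.44, SE 0.10, limma adjusted p = 0.0023), and Klc3 and Klc4, also light chains, stood at -0.67 (SE 0.28) and -0.38 (SE 0.17). Without BU 2, Klc3 passed as lower (-0.87). Of 14 cargo adaptors, 2 were DEGs higher in BU, 0 were lower and 12 did not pass (median 0.06), a share of 14.3% that is close to the 13.3% over all genes. Spag9, also called JIP4, a scaffold between motors and kinases, rose by 0.69 (SE 0.08), while Kidins220 and Arl8a, both under the fold threshold, stood at 0.28 (SE 0.06) and -0.56 (SE 0.13). The other DEG was Plekhm2, which links lysosomes to conventional kinesin. Of 26 genes of cytoplasmic dynein and dynactin, the minus-end motor, 0 were higher, 1 was lower and 25 did not pass (median 0.01), so that 3.85% were called, against 13.3% over all genes. That gene was Dynlt1b, at 1.35 ± 0.579 CPM in BU and 2.74 ± 0.347 CPM in CTRL, which did not pass without BU 3 and BU 5. Bicd2, a dynein adaptor, and Dync1h1, its heavy chain, stood at -0.37 (SE 0.08) and -0.22 (SE 0.07).

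Tubulins, of which microtubules are built, had 4 DEGs higher and 1 lower in BU of 14 tested (35.7%, against 13.3% over all genes), with a median of 0.27. By DESeq2 there were 3 higher and 0 lower, and there were 3 to 4 DEGs when any 1 library was left out (3 without BU 3, CTRL 1, CTRL 3 or CTRL 4). Tubb4b had 250.9 ± 29.1 CPM in BU and 140.0 ± 3.17 CPM in CTRL (0.83, SE 0.07), and Tubg2, a gamma-tubulin, rose by 0.93 (SE 0.15). Tubb5 stood at -0.45 (SE 0.06), under the fold threshold. Tubb6 and Tuba4a were the other DEGs that rose, and Tubb2a was the one that fell.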

How the data were processed

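The authors sequenced RNA of sorted A_undiff after SPIA amplification and ran the RNAsik pipeline, with featureCounts and GRCm38 named in the submitters' processing notes. SPIA can change the relative yield of transcripts. Not given in the sources used here were the aligner, the annotation and the strand setting. The deposited table gives unnormalised read counts for each gene and, in another unit, gene lengths in bp as the authors gave them. It also holds 8 per-sample CPM columns and the authors' own log2 fold changes, p-values and mean expression, none of which were used.

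Each of the 14608 genes reached 1 CPM in at least 4 libraries, and filterByExpr removed 0. Count columns of BU carry the numbers 2 to 5, unlike the sample labels, and were assigned to the group only. The study's methods name 4 mice per group but no label links a library with a mouse, and the p-values therefore describe variation among libraries, which may be technical.

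The design of the study's methods was used: limma-voom (limma 3.58.1, edgeR 4.0.16, R 4.3.3) with TMM scaling and the group alone. CPM are TMM-scaled. Named with every library were DEGs, genes past an adjusted p of 0.05 among the 4 smallest of their list, and Kif4 and Kif11. Kif5b, Birc5, Numa1, Plekhm2, Tubb6, Tuba4a, Tubb2a, Mcm2 and Pcna were added after their values were seen. So were Gfra1, Etv5, Itga6, Col1a1, Kdr, Pdgfra, Stra8 and Rhox13. Of a related list, the 3 smallest adjusted p were named, and Ticrr, Cdc23, Pdzd11 and 1110002L01Rik as genes on the opposite strand. The members and lists were chosen with earlier results of these data known. Overlaps came from GENCODE M21. The code was tested on simulated counts. Alternatives were DESeq2 1.42.0, the quasi-likelihood test of edgeR, the treat test of limma, other scalings, filters and thresholds, sample quality weights, the counts without mitochondrial genes, other placings of Kif2a and Kif21, and leaving out each library. Tables and plots used Python 3.11.15, pandas 2.3.3, numpy 2.4.6 and matplotlib 3.10.9.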

Additional observations from a re-analysis of the deposited data

Results flagged for a closer look

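Single libraries of a group were screened for a value far from the other 3, by Dixon's test over 80 groups of values, of which chance would give about 4. There were 3. Kif14 had 69.0 CPM in BU 4, against 65.2 to 65.8 CPM in the other BU libraries. Kif3b had 28.5 CPM in CTRL 2, against 34.0 to 35.1 CPM in the other CTRL libraries. The summed transport kinesin level was 534.5 CPM in BU 2, against 584.1 to 591.8 CPM in the other BU libraries.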

How the results depend on the processing

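DEGs over all genes numbered 1949, and 1242 with a filter of 5 CPM in 4 libraries, 664 at a fold over 2, 4693 with no fold threshold and 375 by limma's treat test against 1.5-fold. At a fold over 2 and by the treat test alike, 0 mitotic, 1 transport and 1 other kinesin remained called, Kif5c and Kif21a, and with no fold threshold 11 mitotic kinesins passed. With Kif21a and Kif21b counted as transport kinesins, that list had 5 DEGs and a median of 0.0759. With Kif2a counted as mitotic, the mitotic list still had 4 DEGs, since Kif2a was not called. The median of the other kinesins was 0.0502 with the 5 CPM filter, which drops Kif1a and Kif19a. Without BU 3 and BU 5, an alternative chosen after seeing the data, transport kinesins had 1 DEG, other kinesins 3 with a median of -0.0761, and Kif16b stood at -0.0144. Leaving out each library in turn gave 1763 to 2021 DEGs over all genes, 3 to 5 mitotic, 2 to 3 transport and 4 to 5 other kinesin DEGs, and medians of 0.43 to 0.49 for mitotic kinesins, -0.03 to 0.01 for transport and -0.07 to -0.01 for other kinesins. Log2 fold changes near 0 changed sign without BU 4 (Kif3b 0.0060, Kif7 -0.0089) and without CTRL 3 (Kif13a -0.0060, Kif17 0.0390, Kif7 -0.0105), and over all such fits Kif3b ranged from -0.182 to 0.0060, Kif7 from -0.0105 to 0.131, Kif13a from -0.0060 to 0.148 and Kif17 from -0.0965 to 0.0390. The cause of these changes was not tested. The call of no kinesin gene changed under edgeR's quasi-likelihood test, DESeq2, sample quality weights or the other scalings. No paired analysis was possible because the BU columns carry the numbers 2 to 5 and cannot be tied to the labelled BU samples. The SE of a kinesin gene's log2 fold change was between 0.05 (Kif2a) and 0.28 (Kif19a), with 4 libraries a group, and differences within that error were not detectable.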
